A study of Mus musculus with 2 samples.

Results

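The Otx, Dmbx1, Engrailed and Pax genes studied here are 10 transcription factor genes that pattern the embryonic midbrain and its border with the hindbrain: Otx1, Otx2, Dmbx1, En1, En2, Pax2, Pax5, Pax8, Pax3 and Pax7. They were taken from the deposited gene tables by their Ensembl identifiers, and were 10 of 43346 genes. Their transcripts were the entries of the transcript tables with the same gene identifiers. The study has 1 group, midbrain of B6NCrl mouse embryos at embryonic day 13.5, with no other genotype, treatment or age. The group has 2 libraries, labelled biological replicates 1 and 2, each from pooled male and female tissue and from 10 ng of total RNA above 200 nt with spike-in RNA added. Nothing in the labels ties the libraries to particular litters, so each SD covers the spread between these 2 pools only.

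Otx2 sets up forebrain and midbrain identity, and its posterior limit in the neural tube meets the anterior limit of Gbx2 at the isthmus, the boundary of midbrain and hindbrain. En1, En2, Pax2, Pax5 and Pax8 act around that boundary, where they work with the signals Fgf8 and Wnt1. Pax3 and Pax7 mark the dorsal neural tube, including the roof of the midbrain that becomes the tectum, and Dmbx1 is a homeobox gene of the midbrain and adjoining brain.

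The genes differ in how their proteins read DNA, and the sequences that show this are printed first. Of the 10 genes, 7 carry a full homeobox, found by its conserved tryptophan and phenylalanine codons, and in 3 (Pax2, Pax5 and Pax8) the search found none. Residue 50 of the homeodomain is known to steer the choice of DNA site, and its codon is in capitals in the windows of 42 coding bases below, read from GENCODE M21 transcripts on GRCm38.
Otx1: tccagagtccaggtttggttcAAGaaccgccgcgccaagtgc
Otx2: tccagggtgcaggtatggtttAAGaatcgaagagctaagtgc
Dmbx1: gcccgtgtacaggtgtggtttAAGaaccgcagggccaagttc
En1: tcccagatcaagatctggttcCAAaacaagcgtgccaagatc
En2: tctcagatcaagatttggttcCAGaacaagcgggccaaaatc
Pax3: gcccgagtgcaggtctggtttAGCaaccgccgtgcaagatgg
Pax7: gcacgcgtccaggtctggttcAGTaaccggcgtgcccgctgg

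Otx1, Otx2 and Dmbx1 share the lysine codon AAG there. The Engrailed genes have the glutamine codons CAA and CAG, and Pax3 and Pax7 the serine codons AGC and AGT. The window lay in 1 exon in En1 (chr1:120607043-120607084, plus strand) and En2 (chr5:28170289-28170330, plus strand). In the other 5 genes an intron followed base 12 of the window, as in Otx2 (chr14:48659297-48661310, minus strand, intron included) and Pax3 (chr1:78122727-78132239, minus strand).

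All 5 Pax genes have a paired box. A stretch of 51 coding bases near its start is shown, with the bases that differ from Pax2 in capitals.
Pax2: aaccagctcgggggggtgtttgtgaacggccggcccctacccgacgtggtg
Pax5: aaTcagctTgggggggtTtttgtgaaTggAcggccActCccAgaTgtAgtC
Pax8: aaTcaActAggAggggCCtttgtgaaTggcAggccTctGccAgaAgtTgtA
Pax3: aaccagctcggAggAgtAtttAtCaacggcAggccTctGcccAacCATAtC
Pax7: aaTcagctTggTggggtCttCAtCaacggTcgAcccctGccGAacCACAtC

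Pax5 differed from Pax2 (chr19:44760892-44760942, plus strand) at 11 of these bases, Pax8 and Pax3 at 14 each and Pax7 at 17. Over whole coding sequences, identity of aligned bases was 75.0% for Otx2 and Otx1, 70.5% for En1 and En2 and 75.8% for Pax3 and Pax7. Within Pax2, Pax5 and Pax8 it was 70.5% for Pax5 and Pax2, 71.7% for Pax5 and Pax8 and 69.1% for Pax8 and Pax2. Estimated reads were whole numbers, to within 0.005, in both libraries for 8 of the 10 genes, all but Pax5 and Pax8. A read shared out between genes would leave a fraction.

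The libraries held 32151659 and 41915240 estimated reads, of which spike-ins took 2.22% and 4.06%. Of the hindbrain markers, Hoxb1 and Hoxa3 were at 0, and Hoxb2, the highest of the Hox genes listed, was at 0.24 and 0.14 TPM (a level corrected for transcript length and library size). The 4 telencephalon markers summed to 3.56 TPM in replicate 1 and 15.6 in replicate 2, with Emx1 the highest, and the 5 diencephalon markers, led by Tcf7l2, to 915 and 639. Of 6 dopaminergic markers 4 were at least 2-fold higher in replicate 2 (Th, Ddc, Slc6a3 and Pitx3), with sums of 90.1 and 156 TPM. So were 2 of 6 choroid plexus markers (Kcne2 and Clic6). The sums of that list, 75.4 and 135 TPM, were mostly Ttr, at 61.75 and 116.55 TPM. The part of these tissues in the replicate differences below was not tested. In bulk tissue fewer cells of a type and less RNA per cell cannot be told apart.

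Of the 10 genes, 9 were detected, meaning that they reached 1 TPM in each of the 2 libraries, and the exception was Pax2. The same rule took 34.3% of all 43346 genes. The levels spanned a wide range, from Otx2 above 100 TPM to Pax2 below 1 TPM. The order by mean TPM was Otx2, Pax3, Otx1, Dmbx1, En1, Pax5, Pax7, Pax8, En2 and Pax2. Otx2, Pax3 and Otx1 stood apart from each other and from all lower genes in both libraries. The values of En1 spanned those of Dmbx1 and Pax5, and the values of Pax7 spanned those of Pax8, so En1 has no set place against the first 2, nor Pax7 against Pax8.

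**Figure D1:**
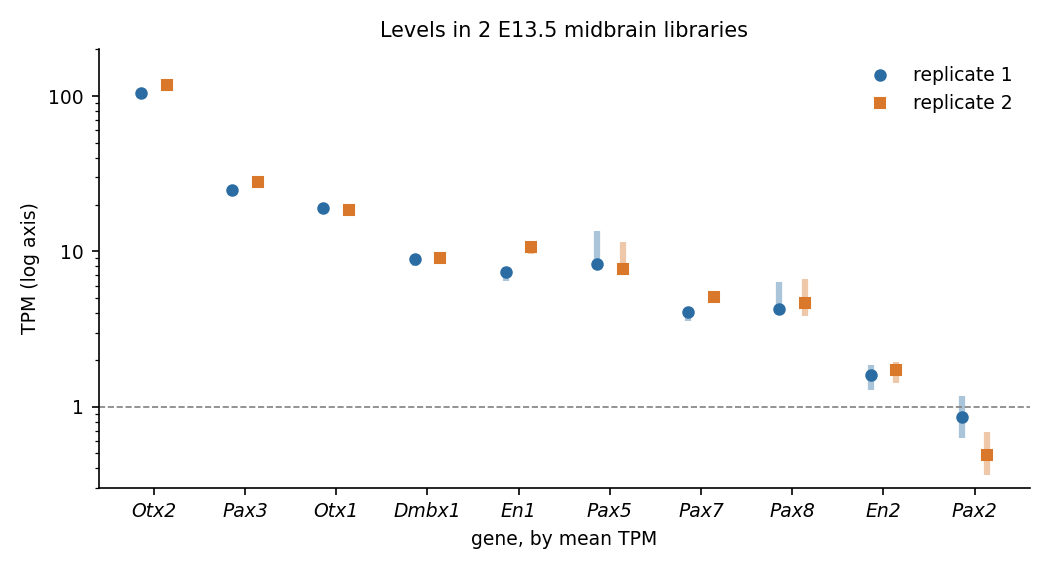
TPM (log axis) of each gene in replicate 1 (circles) and replicate 2 (squares), with the deposited interval of each value as a bar and the detection minimum of 1 TPM as a dashed line. Otx2 lies at 104.49 and 117.17 TPM, Pax2 is below the line in both libraries, and both Pax5 points lie under their bars.

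Otx2, which specifies forebrain and midbrain and holds back hindbrain fate, led the set. Its gene lies on chromosome 14, chr14:48657677-48673819 on the minus strand. It measured 104.49 TPM in replicate 1 and 117.17 in replicate 2 (111 ± 8.97, SD, n = 2), on 3740 and 5638 reads. That placed it above 88.8% and 90.8% of detected genes. The deposited intervals, 98.1 to 106 and 112 to 119 TPM, did not overlap, and replicate 2 was the higher. Otx1, its paralog with a part in cortex and dorsal midbrain (chr11:21994764-22002897, minus strand), stood at 19.0 and 18.4 TPM (18.7 ± 0.424, n = 2), on 1071 and 1390 reads. Its deposited intervals overlapped.

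Otx2 exceeded Otx1 by 2.45 and 2.66 in replicates 1 and 2 on the log2(TPM + 0.1) scale (mean 2.56 ± 0.15, n = 2), a mean of 5.89-fold. Of the summed TPM of the pair, Otx2 held 84.6% and 86.4%. Crx, the third Otx family gene and a factor of photoreceptors and pineal cells, was below 1 TPM with 0.09 and 0.33 TPM, on 5 and 21 reads. Dmbx1, a paired-like homeobox gene (chr4:115915119-115939926, minus strand), was at 8.96 and 9.12 TPM (9.04 ± 0.113, n = 2), on 704 and 957 reads. Its values differed little between the libraries.

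En1 maintains the midbrain and anterior hindbrain and is expressed in dopaminergic neurons, and En2 is its later paralog. En1 (chr1:120602418-120607992, plus strand) measured 7.35 and 10.62 TPM (8.98 ± 2.31, n = 2), on 372 and 717 reads. Its deposited intervals, 6.43 to 7.88 and 9.65 to 11.2 TPM, did not overlap. En2 (chr5:28165694-28172166, plus strand) measured 1.6 and 1.72 TPM (1.66 ± 0.0849, n = 2), on 110 and 158 reads. En1 led by 2.13 and 2.56 on the log2(TPM + 0.1) scale and made up 82.1% and 86.1% of the pair. Each Engrailed gene has 1 transcript in the tables, so its level does not depend on how reads were divided among isoforms.

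Pax2, Pax5 and Pax8 form 1 Pax subgroup, in which Pax2 acts earliest at the isthmus and Pax5 and Pax8 follow. Pax5 (chr4:44524757-44710487, minus strand) was at 8.33 and 7.72 TPM (8.03 ± 0.431, n = 2), on 166.02 and 213.75 reads. Pax8 (chr2:24420560-24475599, minus strand) was at 4.28 and 4.63 TPM (4.46 ± 0.247, n = 2), on 198.91 and 222 reads. Pax8 thus had the more reads and Pax5 the higher level per length, over effective lengths of 994 and 1036 nt for Pax5 and 2317 and 1794 nt for Pax8. Pax2 (chr19:44756045-44837871, plus strand) was the lowest of the 10, at 0.86 and 0.49 TPM (0.675 ± 0.262, n = 2), on 48 and 44 reads.

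Pax5 made up 61.8% and 60.1% of the subgroup's TPM, Pax8 31.8% and 36.1%, and Pax2 6.38% and 3.82%. Pax5 led Pax8 by 0.94 and 0.73 on the log2(TPM + 0.1) scale, and Pax8 led Pax2 by 2.19 and 3.0. The lead of Pax5 over Pax8 varied with the transcript length used and the transcripts counted. It averaged 0.83 on that scale, and 0.53 with 1 fixed coding transcript length per gene. With its leading transcript left out, Pax5 averaged 4.41 TPM, against 4.46 for Pax8. Both alternatives were chosen after seeing the data, and the source of the lead was not tested. Markers of other organs that use these genes were also measured. Of 6 kidney and inner ear markers none was detected, with sums of 0.42 and 0.45 TPM, and Slc12a1 and Umod were at 0. Of 5 thyroid markers 1 was detected, Nkx2-1, which the ventral forebrain also expresses, at 7.53 and 4.82 TPM of list sums of 7.7 and 5.12, and Foxe1 was at 0. Of 5 B lymphocyte markers 1 was detected, Ebf1, a gene also of developing neurons, at 76.43 and 73.13 TPM of list sums of 78.0 and 74.8. The part of these organs in the Pax levels was not tested.

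Pax3 and Pax7 are the dorsal pair, with Pax7 known as a marker of the tectum and both as regulators of muscle progenitors and neural crest. Pax3 (chr1:78101267-78197134, minus strand) measured 24.92 and 27.82 TPM (26.4 ± 2.05, n = 2), on 1812 and 2714 reads. Pax7 (chr4:139737062-139833528, minus strand) measured 4.04 and 5.05 TPM (4.54 ± 0.714, n = 2), on 449 and 771 reads. Both were higher in replicate 2, and the deposited intervals of neither overlapped between the libraries. Pax3 led Pax7 by 2.60 and 2.44 on the log2(TPM + 0.1) scale and made up 86.0% and 84.6% of the pair. Of 7 skeletal muscle markers 1 was detected, Tnnt1, with list sums of 8.25 and 6.1 TPM, and Myod1, Myf5, Myf6 and Myog had at most 2 reads in a library. Of 7 neural crest and melanocyte markers 3 were detected, led by Tfap2b at 207.67 and 229.46 TPM, a gene that midbrain neurons also express.

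The smallest p that an exact sign-flip test can reach with 2 libraries is 0.5, so the 6 paralog comparisons carry no p. In each of the 6 the same gene was the higher in both libraries. The pairs are written with that gene first, so the order of the names is no result. The pairs within Pax2, Pax5 and Pax8 share genes and are not independent. Of the 4 other Pax genes, Pax6 alone was detected, at 33.34 and 30.86 TPM (32.1 ± 1.75, n = 2), above the level of Pax3 in both libraries. Pax1 had 0 and 3 reads, Pax9 0 and 1, and Pax4 none in either library.

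Between the replicates the genes of the set stayed within 2-fold. After TMM scaling (a scaling of read totals over all genes), 7 of the 10 were higher in replicate 2, with a median log2 ratio of 0.11 for the 10 genes. The median over all genes averaging 50 reads or more was 0.00. Their ratios of replicate 2 to replicate 1 ran from 0.816 at the 5th percentile to 1.32 at the 95th. En1 (1.49) and Pax7 (1.33) lay above that band, and Pax2 (0.709), on a mean of 46 reads, below it. None of the 9 members averaging 50 reads or more was 2-fold apart, against 0.738% of all such genes (106 of 14366). None was 1.5-fold apart either, against 3.36% (483 of 14366), and En1 lay just under that size. These counts are near the background, so they are not particular to the members.

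**Figure D2:**
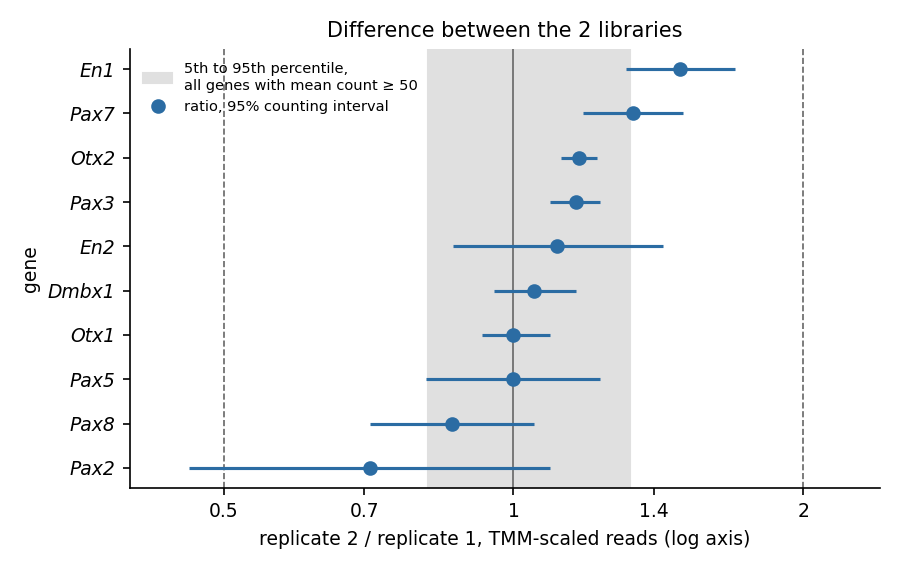
Ratio of TMM-scaled reads, replicate 2 over replicate 1 (log axis), with exact 95% counting intervals, dashed lines at 2-fold either way and a grey band for the 5th to 95th percentile of all genes averaging 50 reads or more (0.816 to 1.32). En1 at 1.49 and Pax7 at 1.33 lie above the band, and Pax2 at 0.709 lies below it with the widest interval.

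The ratio of replicate 2 to replicate 1 was 1.49 for En1 (exact Clopper-Pearson 95% interval 1.31 to 1.70). For Pax7 it was 1.33 (1.18 to 1.5), for Otx2 1.17 (1.12 to 1.22) and for Pax3 1.16 (1.09 to 1.23). These 4 intervals lay above 1, and those of the other 6 genes included 1. They cover counting error only, as the labels name no molecular identifiers and reads may repeat the same molecule. The lowest ratio was that of Pax2, 0.709 (0.46 to 1.09), and that of Pax8 was 0.863 (0.71 to 1.05). The direction of Pax8 turned when its TPM was used, with a ratio of 1.08, as its estimated effective length was 2317 nt in replicate 1 and 1794 nt in replicate 2. Pax2 fell short of the count minimum with a mean of 46 reads. Its TPM ratio of 0.57 was lower than its read ratio, as its estimated effective length was 2788 nt in replicate 1 and 3363 nt in replicate 2.

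The transcripts of Otx2 were shared between several starts in the same proportions in both libraries. Otx2-201, a coding transcript that starts at position 48665106, held 56.33% of the gene's abundance in replicate 1 and 56.6% in replicate 2. Otx2-202, a coding transcript that starts upstream at 48667513, held 28.21% and 27.8%, and the short Otx2-205 from the same start 8.18% and 7.55%. Summed by starts within 100 bases, the upstream start at 48667508 to 48667513 held 36.4% and 35.4%. A further start at 48667644 (Otx2-208) held 3.2% and 3.42%, and those at 48665521, 48662872 and 48661932 at most 3.1% each. The deposited length of Otx2-201 was 2284 nt and that in GENCODE M21 2144 nt, so the deposited model differs from the one whose start is given.

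**Figure D3:**
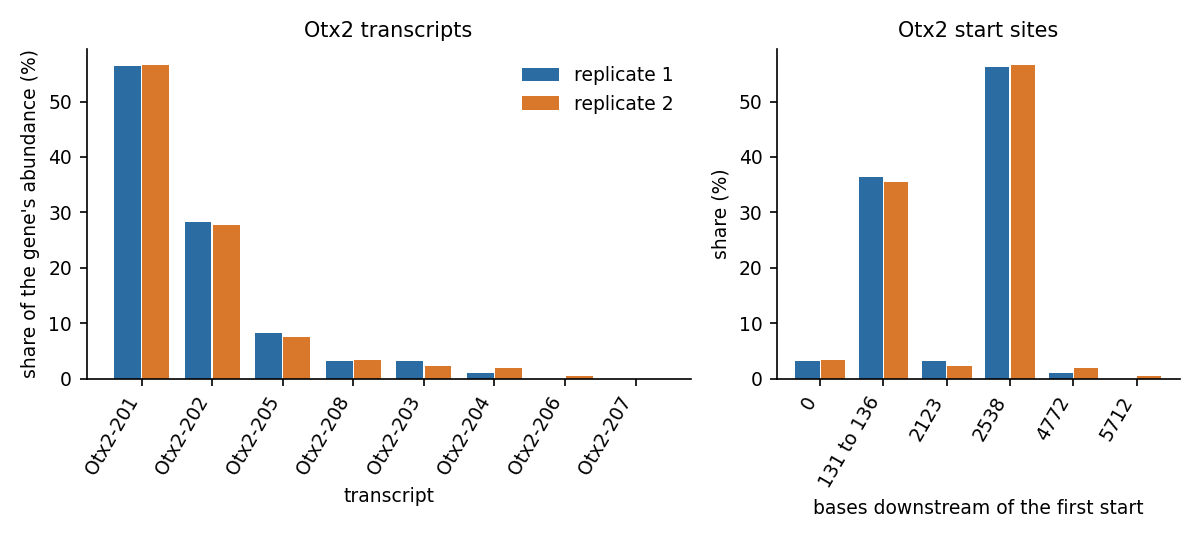
Share (%) of the abundance of Otx2 by transcript (left) and by start site (right, in bases downstream of the most upstream start), with a bar for each replicate. The start at 2538 bases holds 56.33% and 56.6%, that at 131 to 136 bases 36.4% and 35.4%, and no other start holds more than 3.42%.

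RefSeq promoter windows on GRCm38.p6, from 250 bases before to 50 after a start, were found for 7 of the 10 genes, and not for Otx1, En2 and Pax3. The windows at the 2 main Otx2 starts are shown because those starts carry most of the gene's RNA. Capitals mark matches on either strand to 5 motifs. These are the TATA box TATAAA, the promoter element CCAAT and the GC box GGGCGG. The others are TAATCC, known as the site of homeodomains with lysine at residue 50, and the general homeodomain core TAATTA, which reads the same on both strands.
Otx2 upstream start, chr14:48667459-48667758, minus strand: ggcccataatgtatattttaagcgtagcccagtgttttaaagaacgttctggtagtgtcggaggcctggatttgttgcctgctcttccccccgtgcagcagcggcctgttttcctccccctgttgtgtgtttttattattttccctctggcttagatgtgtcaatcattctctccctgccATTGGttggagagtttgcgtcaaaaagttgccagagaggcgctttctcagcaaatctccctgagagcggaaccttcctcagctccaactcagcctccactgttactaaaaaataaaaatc
Otx2 downstream start, chr14:48665060-48665359, minus strand: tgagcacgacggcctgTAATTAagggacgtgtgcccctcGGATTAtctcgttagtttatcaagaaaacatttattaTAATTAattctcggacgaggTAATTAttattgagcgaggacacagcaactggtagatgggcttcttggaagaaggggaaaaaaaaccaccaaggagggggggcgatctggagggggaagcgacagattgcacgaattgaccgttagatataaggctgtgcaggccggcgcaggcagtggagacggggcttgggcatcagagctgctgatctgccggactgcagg

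The upstream window held 1 CCAAT match, read as ATTGG, a motif found in 37.4% of 32851 mouse promoter windows of the same length. The downstream window held 3 TAATTA matches, a motif with at least 1 match in 5.29% of windows, and 1 TAATCC match, read as GGATTA, in 7.06%. Neither held TATAAA (13.6% of windows) or GGGCGG (35.7%). The windows had 8 and 16 CG pairs, against a median of 7 over all windows. A match is a run of letters and not a measured binding site.

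Among 3 of the genes, transcripts differed by a short coding segment at the start of an exon, with a length divisible into whole codons. The segment is in capitals, with 18 transcript bases on each side.
Otx2-202, segment at chr14:48661451-48661474, minus strand: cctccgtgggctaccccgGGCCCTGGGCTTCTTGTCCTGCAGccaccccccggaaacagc
Dmbx1-202, segment at chr4:115920712-115920726, minus strand: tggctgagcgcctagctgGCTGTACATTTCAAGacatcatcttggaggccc
Pax7-202, segment at chr4:139828705-139828710, minus strand: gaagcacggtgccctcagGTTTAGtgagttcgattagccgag

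Each segment ends in AG, the letters that end an intron, so the shorter form joins at the base that follows it. The 24 bases of Otx2 follow coding base 97, ahead of the homeobox window. Otx2-202, with them, has a coding length of 891 bases, and the forms with 867 coding bases, Otx2-201 and Otx2-204, together held 57.3% of the gene in replicate 1 and 58.6% in replicate 2. Dmbx1-202, with its 15 bases, held 10.21% in replicate 1 and 25.85% in replicate 2, on 72.12 and 247.84 reads. Dmbx1-203, without them, held 89.79% and 73.96%. The deposited intervals of Dmbx1-202, 0.348 to 2.76 and 1.12 to 3.82 TPM, overlapped, so these estimates do not separate the libraries. Pax7-202, with its 6 bases, held 4.94% and 1.16%, on 6.5 and 2.55 reads, and Pax7-201 held 95.06% and 98.84%.

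The leading transcript was the same in both libraries for 9 of the 10 genes, the exception being Pax2, whose 3 transcripts had 4.04 to 26.35 reads each. En1 and En2 have 1 transcript each, so theirs could not differ. The share of all genes that keep their leading transcript was not computed, so the count is not particular to the set. Otx1-201 held 92.5% and 90.83% of Otx1, and Otx1-203, a retained-intron form, 6.1% and 7.13%. Pax3-202, with 1437 coding bases, held 80.54% and 82.91% of Pax3. Pax3-201, with 1452 coding bases, held 10.62% and 7.51%, and the non-coding Pax3-203 8.84% and 9.58%. Pax8-201, the full coding form of 1371 coding bases, held 76.73% and 51.24% of Pax8. Much of that drop went with Pax8-205, a retained-intron piece of 345 nt that had 0 reads in replicate 1 and 5.83 in replicate 2, which its short length turned into a share of 19.16%. By reads, Pax8-201 held 81.5% and 70.3%.

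**Figure D4:**
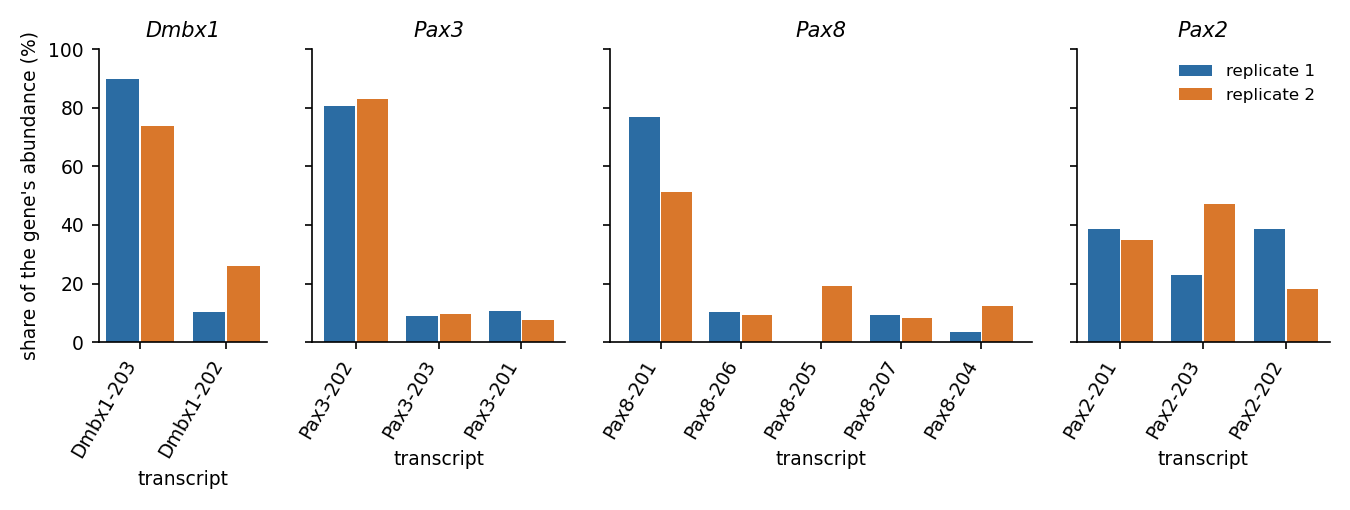
Share (%) of each gene's abundance held by the transcripts of Dmbx1, Pax3, Pax8 and Pax2, with a bar for each replicate. Shares of Pax3 differ by under 5 points between replicates, Pax8-205 goes from 0 to 19.16%, and the leading transcript of Pax2 is not the same in the 2 libraries.

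The level of Pax5 depends on how its reads were assigned. It has 20 transcripts in the tables, of which 7 had reads in a library. Pax5-208, which starts at 44704006, inside the gene and downstream of the start of Pax5-201 at 44710487, led with 44.13% and 45.97% on 80.7 and 103.88 reads. Pax5-210 held 32.12% and 25.41%, and Pax5-201, the full coding form of 1173 coding bases, 12.26% and 16.18%. The 636 bases of the exon that opens Pax5-208 all lie within 5730488B01Rik, an unclassified gene on the other strand (chr4:44702800-44705110, plus strand), with 2.98 and 3.05 TPM. The reads of Pax5 and 5730488B01Rik were both fractional and summed to exactly 298 and 394, so reads were divided between them. No strand setting is stated, but reads were here divided between genes on opposite strands. How many reads of Pax5-208, and of the other Pax5 transcripts that overlap 5730488B01Rik, belong to that gene is therefore uncertain.

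**Figure D5:**
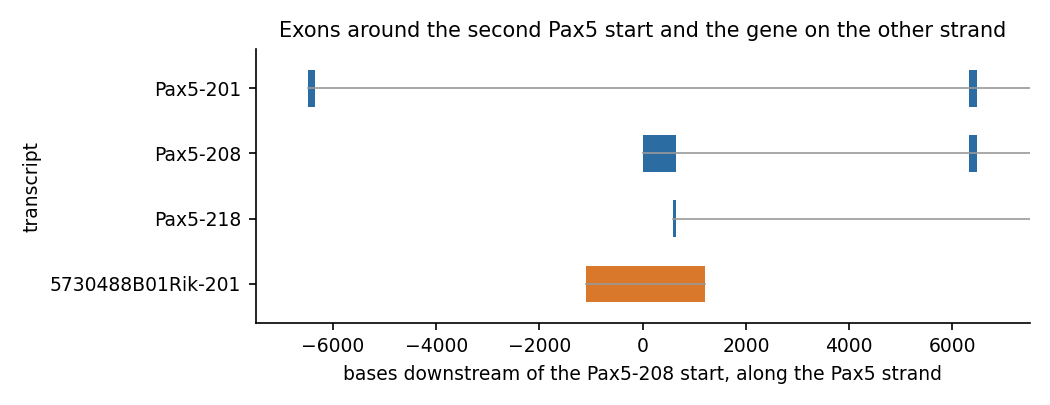
Exons (boxes) of Pax5-201, Pax5-208 and Pax5-218 and of 5730488B01Rik on the other strand, in bases downstream of the Pax5-208 start along the Pax5 strand. The opening exon of Pax5-208, 636 bases long, lies inside the 5730488B01Rik box, and the Pax5-201 start lies upstream of it.

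Without Pax5-208, Pax5 stood at 4.65 and 4.17 TPM (4.41 ± 0.339, n = 2), within the range of Pax7 and Pax8. The Pax5 transcripts that start at 44703413 also overlap 5730488B01Rik and stay in that value. They held 11.5% and 8.14% of the gene's abundance, on 4.92 and 5.41 reads. The deposited posterior means of Pax5 were higher than its TPM, 11.01 and 9.55, and its TPM fell under the lower bound of the deposited interval in both libraries, 8.64 and 7.81. It was the exception among the 10, whose other 9 TPM values lay inside. The model of Pax5-201 was 1616 nt long in the deposited tables and 8004 nt in GENCODE M21. Pax8 also shared reads with a gene on the other strand, Gm13415, which had 4.09 and 0 reads and made the sums whole at 203 and 222.

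Of the other overlapping genes, Otx2os1, a non-coding gene on the other strand of the Otx2 locus, had 12.3 and 14.12 TPM, on 163 and 245 reads, and shares no exon bases with Otx2. Gm12462, opposite Pax5-211, had 20 and 18 reads, and Pax5-211 had none.

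The rest of the boundary network was present. All 27 listed partners of the set were detected, with list medians of 20.8 and 16.9 TPM, against 16.6 and 16.3 over all detected genes. Among the highest were Pbx3 (71.68 and 78.98 TPM) and Cnpy1 (73.68 and 66.71), a gene of FGF signalling whose locus lies 28653 bases from En2. Meis2 followed at 56.97 and 61.86 TPM, Lhx1 at 47.11 and 49.09 and Gbx2 at 59.72 and 26.32. Pbx and Meis proteins are homeodomain partners of Engrailed and other factors. The lowest by mean TPM was Fgf8, the isthmic signal, at 1.72 and 2.21 TPM on 29 and 48 reads.

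Among the 27, 2 were at least 2-fold apart on 50 reads or more. Wnt1, the midbrain signal known to maintain Engrailed expression, was 2.12-fold higher in replicate 2 (1.76 to 2.58), at 3.26 and 6.71 TPM. Gbx2, the gene that meets Otx2 at the isthmus and is strong in thalamus, was 2.2-fold higher in replicate 1. Over the 26 genes of the list that averaged 50 reads or more, the median log2 ratio was 0.04, with 15 of 26 higher in replicate 2.

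Likeness was measured as the distance between log2 levels in the 2 libraries, over a pool of 41 homeobox and Pax family genes, so it shows equal level and nothing more. Nearest to Otx2 were Pou4f1 (distance 0.07, 100.79 and 121.59 TPM), Lhx9 (0.25) and Pbx3 (0.79). En1 had Irx1 (0.27, 6.14 and 9.98 TPM), Barhl2 (0.53) and Nkx2-2 (0.67). Pax3 had Irx3 (0.15, 23.67 and 30.56 TPM), Barhl1 (0.24) and Irx5 (0.35), and Pax5 had Nkx2-2 (0.18), Nkx6-2 (0.40) and Irx1 (0.57).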

How the data were processed

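Expected counts (estimated reads), TPM, FPKM and the percent of each transcript were deposited by the authors as gene and transcript tables on mm10 with GENCODE M4, per the submitters' processing notes. The TPM interval bounds are deposited scores with no confidence level given. No aligner or strand setting is given in the sources used here. Symbols, positions and exons came from GENCODE M21 of GRCm38, with 42462 identifiers matched and 884 not.

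Expected counts were rounded and scaled by TMM (edgeR 4.0.16) without spike-ins or tRNA entries. With 1 library on each side no test exists, so genes were counted by size, 2-fold at a mean count of at least 50. Paralogs were compared as log2(TPM + 0.1), a scale that understates differences of low genes. In counts simulated with counting error only (Poisson), the rule of size took 95.5% of 3-fold and 0% of unchanged genes. That setting leaves out other variation between libraries, and in the real pair 0.738% of genes passed the rule. Coding identity came from global nucleotide alignments (Biopython 1.88), and protein identity was not computed. Values were also computed with size factors of DESeq2 1.42.0, library totals, other minimums and pseudocounts, FPKM, posterior means and each library alone. The named genes were the 10 members, the 6 highest and the lowest network genes with those past 2-fold, overlapping genes with at least 10 reads, other family members, nearest genes by level, and the highest or undetected markers. A few genes that these rules take are left out. The members and lists were chosen with earlier results of these data known.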

Additional observations from a re-analysis of the deposited data

Results flagged for a closer look

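Reads outside the gene measurements were present in both libraries. Spike-in entries held 715022 reads in replicate 1 and 1699859 in replicate 2, or 5.36% and 9.39% of the deposited TPM. Since TPM sums to a fixed total with spike-ins included, the TPM of every gene in replicate 2 is lowered relative to replicate 1 by that difference. The 26248 tRNA entries held 23.54 and 22 reads.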

How the results depend on the processing

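Of 185 recomputed values, 141 stayed within the tolerance of their kind, 41 moved beyond it and 3 changed sign. The tolerance was 1 SD between the libraries for a level, share or paralog lead, 1.5 times for a count, and the same sign for a replicate ratio. The median level of the 10 genes, 8.5 TPM, became 9.2 when TPM was rescaled to genes only, 5.37 as FPKM and 7.17 with 1 fixed coding transcript length per gene, an alternative chosen after seeing the data. It was 7.84 to 8.42 TPM with either library left out. The number of genes detected was 9 at a minimum of 0.5 TPM and 6 at 5 TPM, and none passed 2-fold under any scaling or count minimum tried. The changes of sign were in log2 replicate ratios: Otx1 from 0.01 to -0.05 and Pax8 from -0.21 to 0.11 with TPM + 0.1, and Pax5, at -0.00, to 0.01 by library totals. Network genes past the rule numbered 4 at 1.5-fold against 2 at 2-fold. With a pseudocount of 1, the log2 leads fell to 1.89 for En1 over En2, 2.31 for Pax3 over Pax7, 2.44 for Pax5 over Pax2 and 1.71 for Pax8 over Pax2. With the fixed length, Otx2 led Otx1 by 2.21 and Pax5 led Pax8 by 0.53, and Pax5 fell to 5.36 TPM. Leaving out Pax5-208, also chosen after seeing the data, gave Pax5 4.41 TPM. By reads, the leading share was 87.5% for Otx1-201, 68.8% for Otx2-201, 48.6% for Pax5-208 and 84.5% for Pax3-202, and by posterior means 56.2% for Otx2-201 and 30.9% for Pax5-208. No paired analysis was possible because the study has 1 group. Depth limits Pax2 most, at 48 and 44 reads.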
